A study of Mus musculus with 12 samples.

Results

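AGO2 peaks in the exons of non-coding transcripts made up 247 of the 10057 peaks listed for mouse cerebellum at postnatal days 7 and 15 (P7 and P15). A peak is a stretch of RNA recovered with the Argonaute protein AGO2. A peak was counted as non-coding when, on its own strand in the GENCODE M21 annotation of mm10, it overlapped an exon of a transcript that is not protein-coding and touched no 3' UTR, coding sequence or 5' UTR of a protein-coding transcript. By this rule 103 of 4884 peaks were non-coding at P7 and 144 of 5173 at P15. The peaks were then split by the type of their gene.

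Homozygous conditional Spy3-Ago2 mice received, at P0 and into the brain ventricles, an AAV that carries Cre under the L7 promoter of Purkinje cells, and cerebella were taken at P7 or P15. The protocol gives this for all samples, while the genotype label of all samples reads WT; the labels do not resolve the difference, and they name no group without the virus. AGO2 with its RNA was bound to HaloTag-SpyCatcher3 resin, RNA was taken from gel pieces between 70 and 150 kDa, and the 12 samples are 2 replicates per age of miRNA, target and input libraries. The peaks come from the target libraries, the miRNA counts from the miRNA libraries, and the input libraries were not analysed here. A separate list, deposited with the P15 target replicate 2 and called the replicate 2 list here, held 1624 peaks, of which 156 were non-coding; how it relates to the P15 list is not stated. Whether a list pools its replicates is not stated either, and peaks have no height, so ages are described and not tested.

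AGO2 carries a miRNA whose bases 2 to 8, the seed, pair with target RNA, most often in the 3' UTR of an mRNA. Long non-coding RNAs can also carry such sites, and a few are known for them: the circular RNA made from the strand opposite Cdr1 holds many miR-7 sites, and Oip5os1, also called Cyrano, holds a long miR-7 site that leads to decay of that miRNA. Small non-coding RNAs (snoRNAs, tRNAs, rRNAs, Y RNAs) are abundant in every cell, work mainly in RNA processing and translation, and are not usual miRNA targets.

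The windows below show the sequences on which the results turn, each of at most 30 bases of the annotated transcript (GENCODE M21, mm10), read 5' to 3'. The first 5 show the miR-7 matches of the Cdr1 antisense locus, annotated as C230004F18Rik (Cdr1os), and of Oip5os1. Capitals mark the match to the seed of miR-7a-5p, whose mature sequence (RefSeq, GRCm38.p6) follows them with the seed in capitals.
Cdr1os, P7 peak 1, chrX:61183298-61183327, plus strand: agcaactgcaaGTCTTCCaacactgtcaag
Cdr1os, P7 peak 2, chrX:61183708-61183737, plus strand: aaccagtctatGTCTTCCagaaaaatccag
Cdr1os, P7 peak 3, chrX:61184882-61184911, plus strand: cagaagtccaaGTCTTCCcagaaatccgag
Cdr1os, P7 peak 4, chrX:61186015-61186044, plus strand: ttcacctccaaGTCTTCCagcatctccagg
Oip5os1, beside the shared peak, chr2:119602143-119602172, plus strand: aaatcaccaatGTCTTCCattttgagatgt
miR-7a-5p: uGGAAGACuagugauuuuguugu

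The next 4 windows come from peaks of long non-coding RNAs. In the first 3, from peaks listed at both ages, capitals mark TGTANATA, the motif bound by Pumilio proteins, and in the last, at the 3' end of Meg3, they mark a match to the seed of the miR-29 family, shown with miR-29c-3p.
Rian, chr12:109650787-109650816, plus strand: aagtcagtaaaTGTAAATAaaaattgacta
Norad, chr2:156391439-156391468, minus strand: actgactgctgTGTATATAgtggacaacag
C130071C03Rik, chr13:83741160-83741189, plus strand: tgggtcgtttaTGTAAATAtgttaactata
Meg3, chr12:109571682-109571711, plus strand: ctagtggctcaTGGTGCTttcaataaattt
miR-29c-3p: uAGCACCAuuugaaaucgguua

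The last 3 windows show peaks of other kinds that were listed at both ages. Capitals mark letters shared with the 5' RNA adapter of the libraries in Gm37320, the B box motif of tRNA genes in Gm10616, and the whole P7 peak at the 5' end of the Y RNA gene Rny3.
Gm37320, chr15:68325538-68325567, minus strand: aatgaatAGAGTTCTACAGTCCaggagaac
Gm10616, chr7:79466461-79466490, plus strand: aagattgcaGGTTCGAGTCCtgccgcggtc
Rny3, chr6:47781624-47781646, plus strand: GGTTGGTCCGAGAGTAGTGGTGT

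Small RNA genes and lincRNAs held most of the peaks at both ages. Small RNA genes had 43 peaks at P7 (41.7% of the non-coding peaks) and 56 at P15 (38.9%). LincRNAs had 25 at P7 (24.3%) and 48 at P15 (33.3%). Non-coding transcripts of coding genes had 13 and 11, genes of the class processed transcript 4 and 9, antisense genes 3 and 2, and the provisional GENCODE class TEC 5 and 6. Of the 24 peaks in coding genes at either age, 13 lay only in transcripts with a retained intron, 1 in both such a transcript and a processed transcript, and 6 in transcripts marked for nonsense-mediated decay. The peaks fell in 73 genes at P7 and 91 at P15, and 46 of the 118 genes had a peak at both ages.

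**Figure D1:**
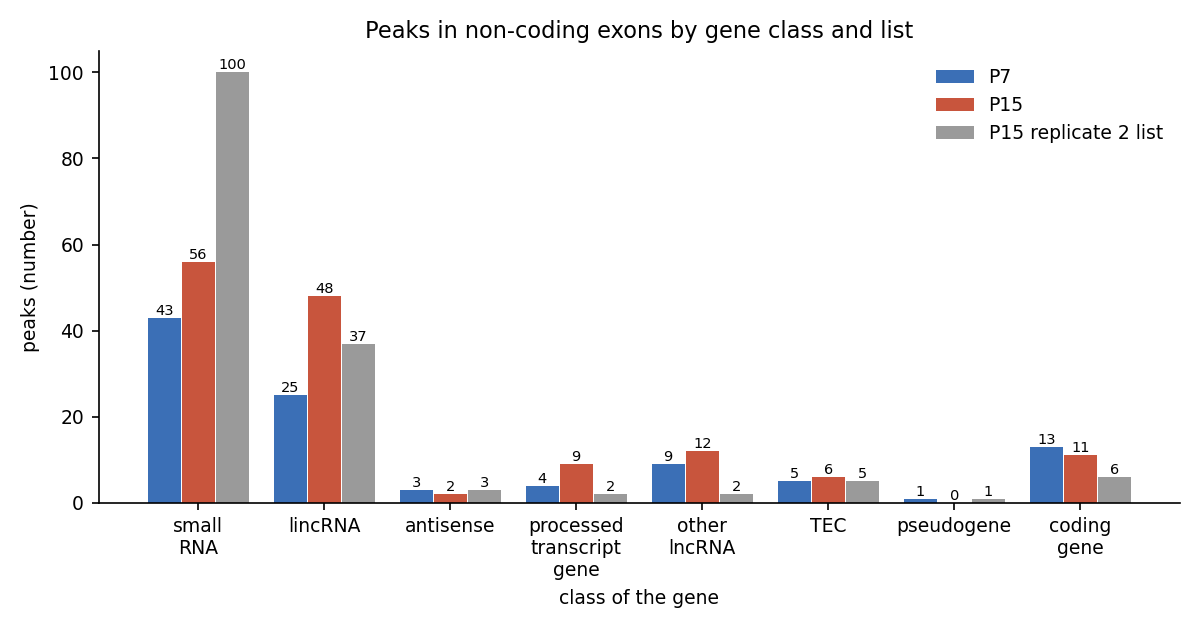
Number of peaks in non-coding exons (vertical axis) by class of gene, for the P7 list, the P15 list and the replicate 2 list. Small RNA genes reach 100 of the 156 peaks in the replicate 2 list, while lincRNAs go from 25 at P7 to 48 at P15.

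Non-coding peaks were 2.11% of the P7 list (exact 95% interval 1.72 to 2.55) and 2.78% of the P15 list (2.35 to 3.27). They were 9.61% of the replicate 2 list (8.22 to 11.1), where small RNA genes held 100 of 156. These intervals cover counting error only. Their median width was 55 nt at P7 and 56.5 nt at P15, beside 53 and 55 nt for 3' UTR peaks.

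The sample titles name Purkinje cells, and marker genes of several cell types with any exonic peak were counted beside this label. Of 10 Purkinje cell markers 7 had a peak at P7 and 6 at P15, and of 8 granule cell markers 7 and 6. Bergmann glia and astrocyte markers had 6 and 4 of 6, oligodendrocyte markers 3 and 3 of 6, and microglia markers none of 4 at either age. The share of all genes with an exonic peak was not computed. These counts therefore do not tell whether markers of any cell type had peaks more often than other genes. A peak says nothing of the amount of an RNA, and the part of other cells in the lists was not tested.

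The Cdr1 antisense locus held 4 peaks at P7, all in its miR-7 repeat, and 1 peak at P15, outside it. The P7 peaks covered chrX:61183298-61183353, chrX:61183717-61183777, chrX:61184892-61184960 and chrX:61186026-61186114 and held 2, 3, 4 and 3 matches to the miR-7 seed. The exons of C230004F18Rik hold 125 such matches in 24030 nt, of which 121 lie in the 2817 nt that the P7 peaks span. The density was 4.36 matches per 100 nt in the peaks and 4.30 in the stretch they span, so the peaks held no more matches than the repeat around them, against 0.0189 per 100 nt in the other exons. The P15 peak, chrX:61194121-61194163, had no match and lay at the end of an annotated transcript, and the replicate 2 list had no peak in the gene. Linear and circular forms of this RNA cannot be told apart in these lists.

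**Figure D2:**
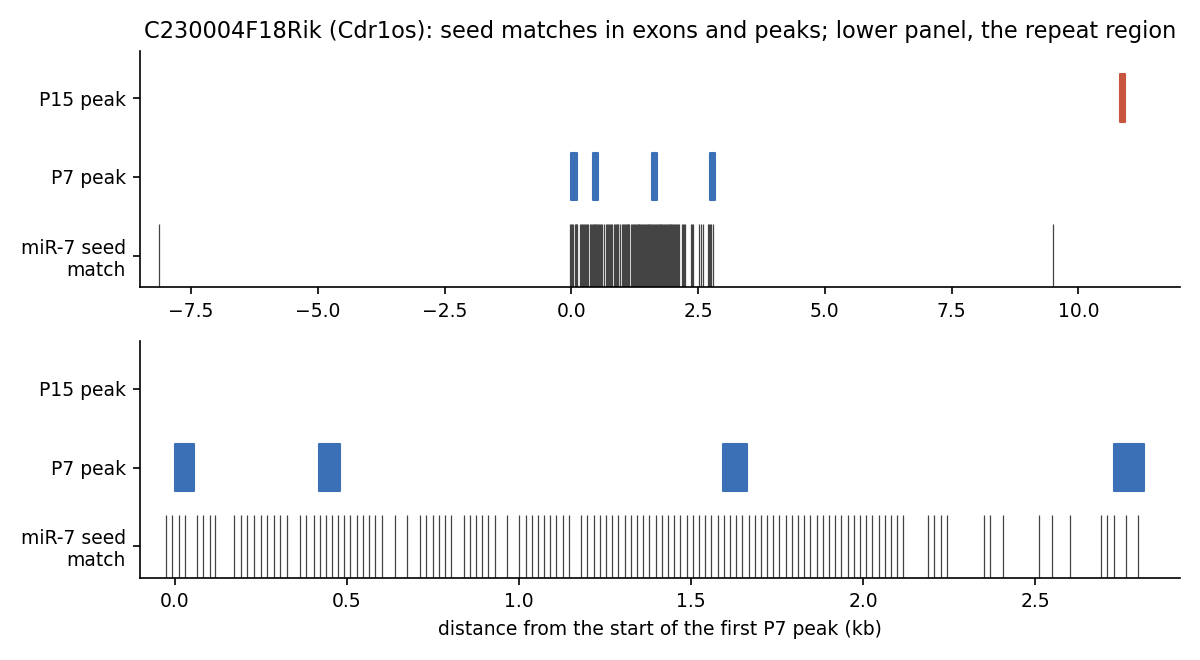
Position of peaks and of miR-7 seed matches in C230004F18Rik against the distance from the start of the first P7 peak (kb); the lower panel enlarges the repeat. The 4 P7 peaks lie inside the block of 121 matches and the P15 peak lies beyond it.

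Oip5os1 (1700020I14Rik) had a peak shared by all 3 lists. It lay at chr2:119602056-119602121 at P7 and chr2:119602080-119602133 at P15. The gene's exons hold 2 miR-7 seed matches, and the nearer, chr2:119602154-119602160, began 32 nt past the P7 peak and 20 nt past the P15 peak. Neither peak itself held a match. A second P15 peak lay at chr2:119605295-119605330.

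Peaks with a miR-7 match were otherwise few. At P7 5 of the 83 non-coding peaks with known sequence held one (6.02%), the 4 above and 1 in Miat, beside 0.504% of 3' UTR peaks and 0.726% of coding exon peaks. At P15 none of 121 did, which allows up to 3.00% (exact interval), beside 0.429% and 0.626%. miR-7a-5p itself had 9 and 4 counts in the P7 libraries (689 and 586 CPM, counts scaled by library total) and 41 and 17 at P15 (243 and 181 CPM). The P7 libraries were higher, without overlap, but the log2 change of -0.97 (SE 0.67) did not pass (adjusted p = 0.496, edgeR's quasi-likelihood test, Benjamini-Hochberg adjustment). miR-671-5p, known to direct the cleavage of the circular Cdr1 antisense RNA, was counted once in each P7 library, and 42 and 2 times at P15, too few to test.

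Long non-coding RNAs with several peaks differed in where those peaks lay. Peg13, an imprinted RNA transcribed from within Trappc9, had 8 peaks at P7 and 10 at P15, all between chr15:72806583 and chr15:72808792 in a gene that spans chr15:72805600-72810324 on the minus strand. Of these, 5 at each age overlapped a peak of the other age, and the replicate 2 list had none in the gene. A P7 peak, chr15:72806921-72807030, held seed matches to miR-690, miR-370-3p and miR-324-5p. At P15 4 Peg13 peaks each held a match, to miR-127-3p, miR-6240, miR-136-5p and miR-128-3p. The miRNAs miR-370, miR-127 and miR-136 come from the imprinted Dlk1-Dio3 domain.

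Rian and Meg3 are maternally expressed RNAs of that domain. Rian, host of snoRNAs and miRNAs, had 2 peaks at P7 and 5 at P15. Both P7 peaks, chr12:109650763-109650905 and chr12:109654289-109654355, overlapped P15 peaks. Meg3 had 2 peaks at P7, chr12:109558773-109558803 and chr12:109566781-109566841, and 3 at P15, and none overlapped between ages. The last P15 peak of Meg3, chr12:109571667-109571722, ended at the end of an annotated transcript and held the miR-29 match and an AATAAA, the signal for polyadenylation. The P7 list had no peak there, and the replicate 2 list had none in Meg3.

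Miat, a nuclear RNA of neurons also known as Gomafu, had 5 peaks at P7 and 1 at P15. The P15 peak, chr5:112213244-112213289, lay 14 nt from a transcript end and inside the P7 peak chr5:112213241-112213309. The 4 other P7 peaks lay upstream and had no P15 partner. In them miR-125b-5p, miR-24-3p, miR-12188-5p and miR-665-3p each had a seed match.

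Norad (2900097C17Rik), a cytoplasmic RNA that binds Pumilio proteins, had 1 peak at P7 and 3 at P15. The P7 peak, chr2:156391440-156391536, overlapped the P15 peak chr2:156391446-156391534, and both held a TGTANATA. Another P15 peak, chr2:156391594-156391656, held a further one. C130071C03Rik, the host of Mir9-2, had a shared peak with the same motif at chr13:83741157-83741203 (P7) and chr13:83741162-83741283 (P15).

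**Figure D3:**
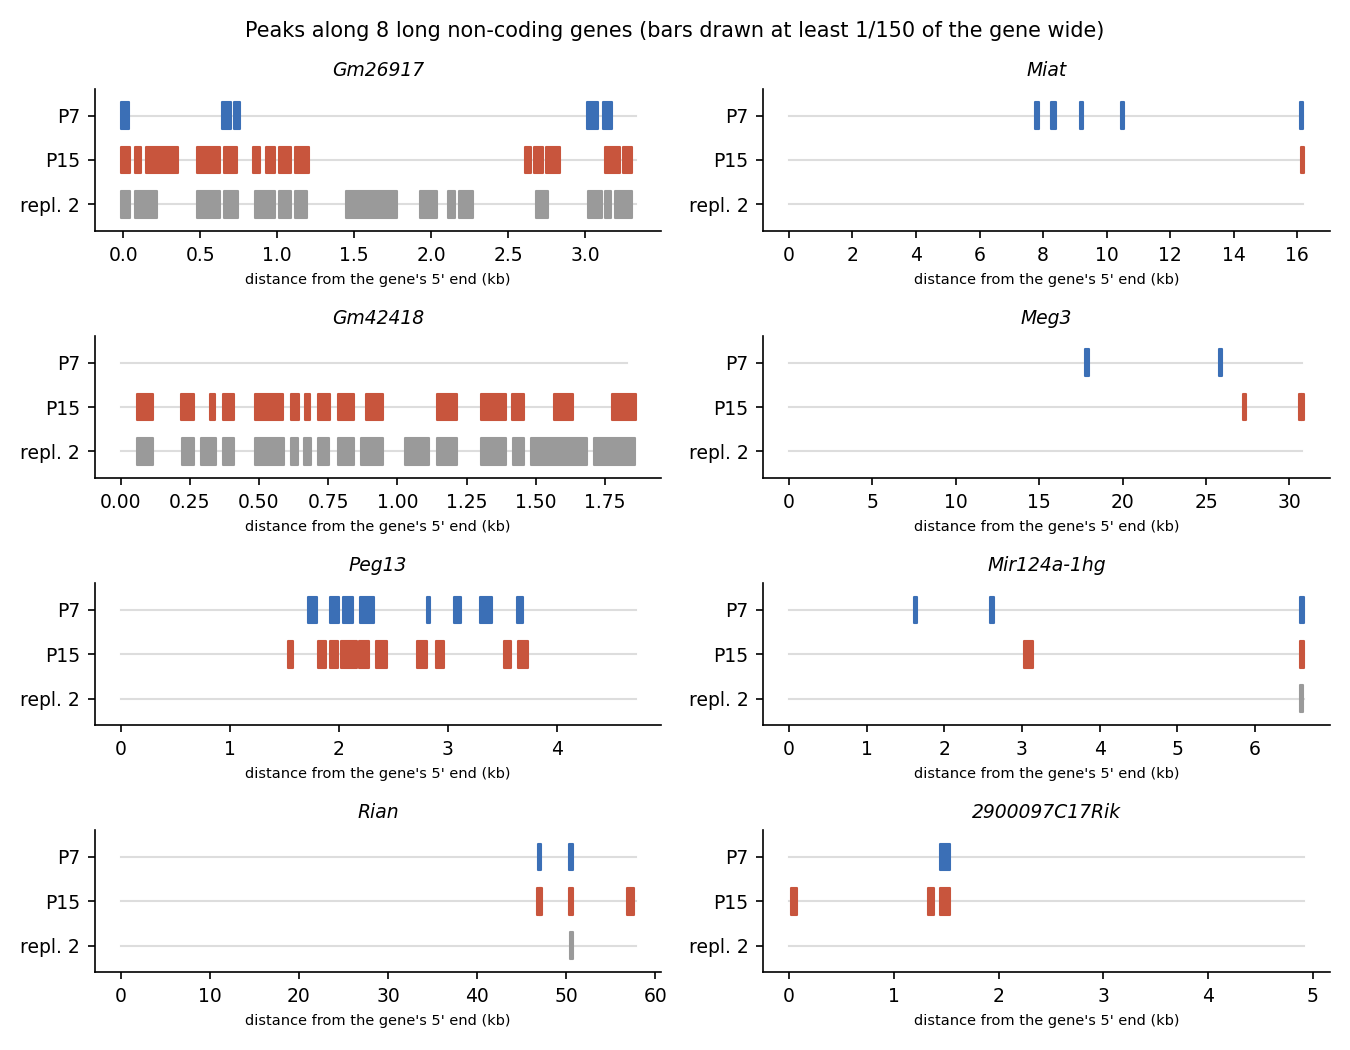
Peaks of the P7, P15 and replicate 2 lists along 8 long non-coding genes, against the distance from the gene's 5' end (kb). Peg13 peaks cluster in the middle of the gene at both ages, Meg3 peaks do not coincide between ages, and Gm42418 has 0 peaks at P7 and 15 at P15.

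Gm26917 and Gm42418 alone gave 29 of the 48 lincRNA peaks at P15. These neighbours on chromosome 17 carry ribosomal RNA sequence; RefSeq lists Gm42418 as Rn18s-rs5. Gm26917 (chr17:39843013-39846341, plus strand) had 5 peaks at P7, 14 at P15 and 15 in the replicate 2 list. Gm42418 (chr17:39846958-39848788, plus strand) had 0, 15 and 16. The nuclear rRNA genes added 11 peaks at P7, 15 at P15 and 16 in the replicate 2 list. The growth in lincRNA peaks from P7 to P15 therefore lay in these loci: without them lincRNAs had 20 peaks at P7 and 19 at P15.

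In non-coding transcripts of coding genes, Ogt, the enzyme that adds O-GlcNAc to proteins, led with 3 peaks at P7 and 1 at P15. The P15 peak, chrX:101654428-101654493, lay in a retained intron inside the P7 peak chrX:101654390-101654513. Atp2a2, the calcium pump SERCA2, had a shared peak (chr5:122456014-122456107 at P7, chr5:122456016-122456089 at P15) with a TGTANATA in a transcript marked for nonsense-mediated decay. Lat and Slc22a19 each had a peak with identical ends at P7 and P15. Mobp, a myelin gene of oligodendrocytes, had 1 peak at each age at separate places, Cacna1e 2 at P7 only, and Hnrnpa1, an RNA-binding protein, 2 at P15 only.

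Among snoRNAs, which guide the modification of other RNAs, 18 genes had a peak at P7 and 20 at P15, and 10 peaks at each age overlapped the other age. Of the 28 snoRNA genes with a peak at either age 25 lie inside another gene and 9 of these inside a ribosomal protein gene. Peaks covered at least 90% of the snoRNA gene in 8 of 18 cases at P7 and 9 of 20 at P15. Snord35a, within Rpl13a, was covered at chr7:45126352-45126436 at both ages, and Snord14e, within Hspa8, at chr9:40804749-40804839 (P7) and chr9:40804750-40804839 (P15). Snora44, within Snhg12, instead had a peak over its 5' end of 33 nt at P7 and 34 nt at P15.

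Mitochondrial tRNA genes had 7 peaks at P7 and 6 at P15, all with a partner at the other age. The peaks of mt-Tt (chrM:15318-15428 at P7) and mt-Tp (chrM:15355-15393) lay over each other on opposite strands. The mt-Tl2 peak touched only 7.04% of its gene. Peaks assigned to mt-Rnr1 and mt-Rnr2 at P15 covered 0.209% and 0.190% of these rRNA genes and lay almost wholly before them. A peak that touched more than 1 small RNA gene was counted for the gene first by name. The mt-Rnr1 peak, chrM:27-71, lay mostly on the mt-Tf gene (chrM:1-68) and overlapped the P7 mt-Tf peak, chrM:24-69. The step from 7 to 6 tRNA peaks and the mt-Rnr1 peak at P15 therefore come from this naming. The mt-Rnr2 peak, chrM:1046-1096, lay almost wholly between mt-Rnr1, which ends at chrM:1024, and mt-Rnr2, which starts at chrM:1094. It overlapped no P7 peak. The naming may hide a tRNA gene there too, so the tRNA counts of both ages are not exact.

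Y RNAs, which bind the Ro protein, had peaks at fixed places. Rny1, of 112 nt, had a peak at each end at both ages, at chr6:47788155-47788182 and chr6:47788071-47788116 at P7. Rny3, of 102 nt, had a peak at its 5' end of 23 nt at P7 and 32 nt at P15. The vault RNA Vaultrc5 had 2 peaks at P15 and none at P7, and the 5.8S rRNA gene n-R5-8s1 had 2 at each age.

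The snRNA genes had 4 peaks at P7, 5 at P15 and 35 in the replicate 2 list. Many of these genes are near-identical copies. The central 20 letters of a peak were found in more than 1 annotated gene for 15 of 28 small RNA peaks at P7 (53.6%) and 25 of 38 at P15 (65.8%). Over all non-coding peaks the shares were 20.7% and 24.2%, beside 2.82% and 2.62% of 3' UTR peaks. Annotated genes that overlap at the same place, such as a host gene with an exon over a small RNA, count here too. Copies elsewhere in the genome were not separated from these. For a peak with copies elsewhere the gene is uncertain, since how reads were placed among copies is not stated in the sources used here.

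Peaks in non-coding exons were listed at both ages more often than coding exon peaks. At P7 55 of 103 (53.4%, exact 95% interval 43.3 to 63.3) overlapped a P15 peak by at least 1 nt, against 13.3% of coding exon peaks (adjusted p = 1.19e-20, two-sided Fisher's exact test, Benjamini-Hochberg over 6 tests) and 46.2% of 3' UTR peaks (adjusted p = 0.178, same Fisher's exact test). The difference from 3' UTR peaks passed when at least 50% of both peaks had to overlap (17.8 percentage points, adjusted p = 0.000266, Fisher's exact test), when nonsense-mediated decay transcripts counted as coding (14.5, adjusted p = 0.00574) and when the replicate 2 list stood for P15 (34.2, adjusted p = 1.4e-13). At P15 55 of 144 (38.2%, 30.2 to 46.7) overlapped a P7 peak, against 23.4% of coding exon peaks (adjusted p = 0.000203, Fisher's exact test) and 18.8% of 3' UTR peaks (adjusted p = 2.13e-07, Fisher's exact test). On the replicate 2 list 95 of 144 (66.0%, 57.6 to 73.7) of the P15 peaks had a partner, against 5.49% and 12.2% (adjusted p = 7.62e-68 and 1.45e-46, Fisher's exact test). Since peaks do not replicate an age, these tests compare classes of peaks within the lists. They also treat peaks as independent, although many lie in the same gene, so the p-values may be too small. At P15, 13 of 14 peaks of Gm26917 and 15 of 15 of Gm42418 had a partner on the replicate 2 list. The size of a class in the partner list also limits how many peaks can overlap. The P15 list held 2580 3' UTR and 1694 coding exon peaks, the P7 list 1005 and 2943, and the replicate 2 list 409 and 203. Counted from the replicate 2 list, 92 of 156 non-coding peaks (59.0%) had a P15 partner, which was not compared between classes. With 409 3' UTR and 203 coding exon peaks in the replicate 2 list, most of the 2580 and 1694 P15 peaks could hardly have a partner. The tests of P15 peaks on that list, here and below, therefore cannot show which class recurs more. The part of list size in the differences was not tested.

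**Figure D4:**
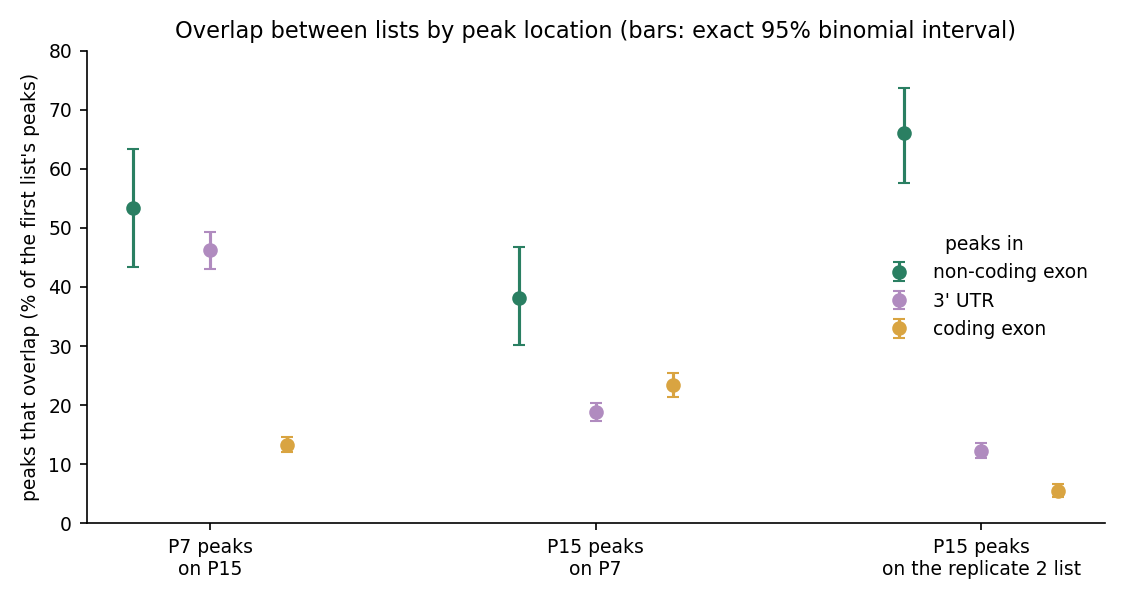
Share of peaks of a list that overlap a peak of another list (percent) for non-coding exon, 3' UTR and coding exon peaks; bars are exact 95% binomial intervals. Non-coding exon peaks reach 66.0% on the replicate 2 list, against 12.2% for 3' UTR and 5.49% for coding exon peaks. That list holds 409 3' UTR and 203 coding exon peaks, against 2580 and 1694 in the P15 list, which limits the last 2 shares.

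Small RNA genes had the highest overlap among the larger classes. At P7 29 of 43 small RNA peaks (67.4%) and 9 of 25 lincRNA peaks (36.0%) had a P15 partner, and at P15 28 of 56 and 8 of 48 (16.7%) had a P7 partner. Without small RNA genes, 43.3% of P7 non-coding peaks overlapped a P15 peak, below the 46.2% of 3' UTR peaks (adjusted p = 0.691, Fisher's exact test), and 30.7% of P15 peaks overlapped P7, which did not pass against the 23.4% of coding exon peaks (adjusted p = 0.149, Fisher's exact test). When Gm26917 and Gm42418 were also left out, 24 of 59 P15 peaks (40.7%) overlapped P7 and the difference from coding exon peaks passed again (adjusted p = 0.00556, Fisher's exact test). On the replicate 2 list the share of P15 non-coding peaks with a partner was 53.4% without small RNA genes and 32.2% also without these loci, and each still passed against 3' UTR peaks (adjusted p = 4.11e-19 and 0.000122, Fisher's exact test) and coding exon peaks (4.76e-31 and 4.47e-09). The overlap of P15 peaks with P7 also depended on the list: when the replicate 2 list stood for P15, non-coding peaks overlapped P7 peaks less than coding exon peaks, by 14.1 percentage points (adjusted p = 0.0122, Fisher's exact test).

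Shared small RNA peaks had nearly the same ends. Both ends agreed within 2 nt for 24 of 55 shared non-coding peaks (43.6%) and for 16 of 29 in small RNA genes (55.2%), but for 1 of 9 in lincRNAs. The same share was 4.53% of 464 pairs in 3' UTRs and 7.40% of 392 in coding exons. Snord35a, Lat, Slc22a19, Gm14236 and Gm37320 were among those with identical ends at both ages.

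Seed matches were searched for 55 families of the 68 miRNAs that reached 1000 CPM on average at either age and have a mature sequence in the RefSeq table. A further 11 miRNAs at that level have no sequence there and added no family to the search. Some of them, such as miR-30d-5p, have a namesake in a searched family, here miR-30c-5p. The seed of miR-124-3p, which had 342654 CPM on average over the miRNA libraries, was not searched. A match of 7 nt to bases 2 to 8 was present in 14 of 83 non-coding peaks at P7 (16.9%, exact 95% interval 9.54 to 26.7) and 23 of 121 at P15 (19.01%, 12.4 to 27.1). In 3' UTR peaks it was 26.3% and 23.2%, and in coding exon peaks 23.5% and 25.7%. Where the windows of equal length on both sides were also known, 7 of 53 P7 peaks held a match, against 13 upstream and 11 downstream windows. At P15 15 of 76 peaks did, against 17 and 16. For the families searched, the non-coding peaks with known flanks thus held no more seed matches than those flanks. Of small RNA peaks only 9 of 43 at P7 and 11 of 56 at P15 had such flanks. In 3' UTRs 230 of 892 P7 peaks held a match, against 223 upstream and 211 downstream windows, and 492 of 2161 at P15, against 520 and 502.

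The motif TGTANATA, searched on the transcript strand, was denser in the peaks than beside them. It was in 5 of 83 non-coding peaks at P7 (6.02%) and 8 of 121 at P15 (6.61%), beside 16.7% and 25.3% of 3' UTR peaks and 0.323% and 1.25% of coding exon peaks. In long non-coding genes other than Gm26917 and Gm42418 it was in 4 of 33 (12.1%) and 7 of 39 (17.9%). Of the peaks with known flanks, 5 held it at P7 against 0 upstream and 1 downstream window, and 7 at P15 against 1 and 1. All but the Atp2a2 peaks lay in Rian, Norad and C130071C03Rik. No test was made of these counts.

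Outside small RNA genes, peaks near the 3' end of transcripts were, by number, mostly in lincRNAs, which also held the most peaks. Within 50 nt of an annotated transcript end lay 4 of 25 lincRNA peaks at P7 and 12 of 48 at P15, the latter in Miat, Meg3, Mir124a-1hg, C130071C03Rik, Cdr1os, Gm2694, Lhx1os and 5031425E22Rik and in the ribosomal loci. In coding genes 1 of 13 peaks at P7 and 3 of 11 at P15 lay as close to an end, and in processed transcript genes 0 of 4 and 2 of 9. AATAAA was in 2.41% of P7 and 7.44% of P15 non-coding peaks, beside 4.73% and 13.6% of 3' UTR peaks.

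Some peaks shared letters with the library adapters or held the B box motif of tRNA genes. The peak of Gm37320 had the same ends at both ages and shared 15 letters in a row with the fixed part of the 5' RNA adapter. Runs of at least 10 such letters, in or within 10 nt of a peak, occurred in 3 of 83 peaks at P7 (3.61%: Gm37320, Miat and 6530413G14Rik) and 1 of 121 at P15 (0.826%), beside 0.201% and 0.0390% of 3' UTR peaks. The B box motif of tRNA genes, searched on the transcript strand, was in 1 peak at P7 and 3 at P15 (1.20% and 2.48%), in Gm10616, Gm17494 and Vaultrc5, beside 0 and 0.0390% of 3' UTR peaks. TGGAAT, the start of the fixed 3' adapter part, followed the peak in 5.19% and 2.78%, beside 3.66% and 2.19% of 3' UTR peaks. The part of adapter pairing in these peaks was not tested.

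Known non-coding RNAs were also followed by list. Of 5 RNAs known to bind miRNAs or proteins 3 had peaks at each age (Oip5os1, Norad and Cdr1os). Of 16 miRNA hosts on a fixed list, 15 of them annotated, 3 had peaks at each age (Meg3, Rian and Mir124a-1hg). C130071C03Rik and Gm3764 also host miRNA genes and had peaks at each age, but are not on that list. Of 12 brain RNAs 5 had peaks at P7 and 4 at P15. Of 18 snoRNA hosts 2 had peaks at P7 (Rian and Snhg14) and 1 at P15, and of 11 nuclear RNAs only Miat had any. Housekeeping small RNAs had 2 of 10 at P7 and 3 at P15. The share of all annotated non-coding genes with a peak was not computed. Whether any of these lists had peaks more often than other non-coding genes is therefore not known. No peak in any list was assigned to an annotated miRNA gene.

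The miRNAs encoded in these host genes include the most abundant in AGO2, and none passed the test between ages. Mir124a-1hg, host of Mir124a-1, had 3 peaks at P7 and 2 at P15, with a shared one at its 3' end (chr14:64593916-64593960 and chr14:64593910-64593959). miR-124-3p, a neuronal miRNA, had 358986 and 336409 CPM at P7 and 350083 and 325139 at P15, ranges that overlap. Its log2 change was 0.60 (SE 0.15, adjusted p = 0.0544, edgeR's quasi-likelihood test, Benjamini-Hochberg adjustment). With library totals in place of TMM scaling it was -0.054, since TMM shifted the median change by 0.66.

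miR-9-5p, encoded in C130071C03Rik and in Gm3764, had 125201 and 105155 CPM at P7 and 114378 and 114424 at P15, again overlapping. Its log2 change was 0.64 (SE 0.20, adjusted p = 0.0964, edgeR) and -0.021 with library totals. Both miRNAs are also made from other loci, which reads of the mature form do not tell apart. miR-370-3p, from Rian, had 4671 and 4247 CPM at P7 and 781 and 882 at P15, without overlap, a log2 change of -1.77 (SE 0.49, adjusted p = 0.0701, edgeR). In the same edgeR test miR-370-3p passed with library totals (adjusted p = 0.0279), without P7 replicate 1 (0.0389) and without P7 replicate 2 (0.0113), and miR-124-3p passed without P15 replicate 1 (0.0205) and without a filter on low counts (1.22e-06), as did miR-9-5p without that filter (0.000982). DESeq2 gave adjusted p of 0.0053, 0.0359 and 0.000304 in turn for miR-124-3p, for miR-9-5p and for miR-370-3p.

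From Meg3, miR-770-5p had 3140 and 4833 CPM at P7 and 2455 and 2029 at P15, without overlap (log2 change -0.18, SE 0.46, adjusted p = 0.927, edgeR). miR-770-3p had 842 and 732 CPM against 237 and 117 (log2 change -1.52, SE 0.68, adjusted p = 0.213, edgeR). miR-9-3p had 1532 and 3808 CPM against 2260 and 2199 (log2 change 0.42, SE 0.54, adjusted p = 0.773, edgeR). Of these 6 miRNAs edgeR called 0, against 3.14% of the 159 miRNAs tested (1.89% higher and 1.26% lower at P15). An unadjusted p under 0.05 in edgeR was reached by 4 of the 6 and by 36 of the 159. DESeq2 called 3 of the 6 and 16 of the 159.

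**Figure D5:**
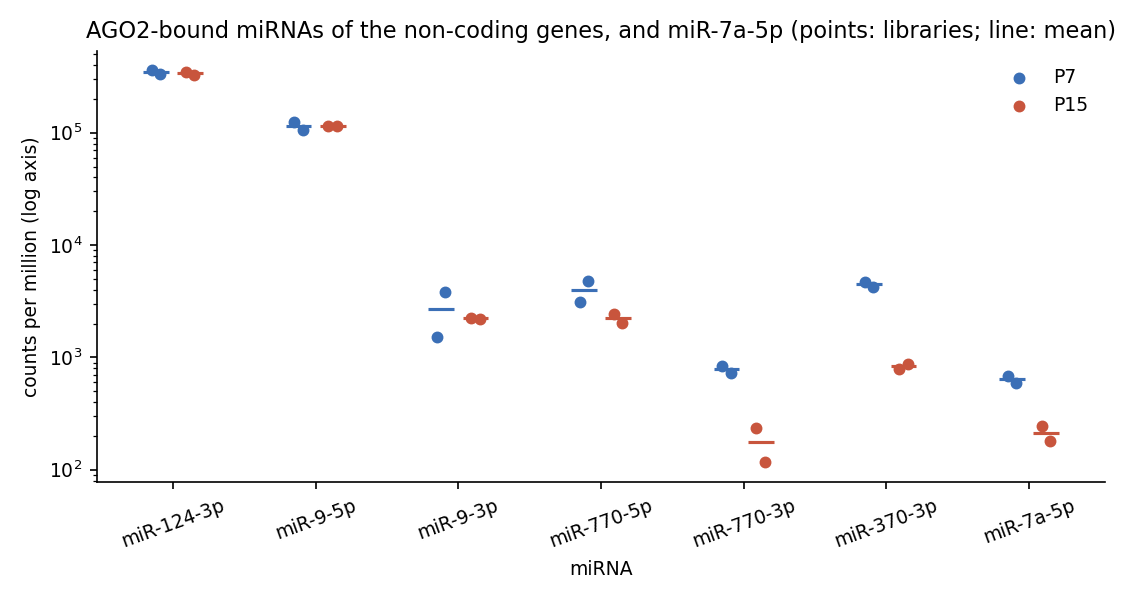
CPM (log axis) of miR-7a-5p and of the tested miRNAs encoded in non-coding genes with peaks; points are libraries, 2 per age, and lines are means. miR-370-3p, miR-770-5p, miR-770-3p and miR-7a-5p lie lower at P15 in both libraries, while miR-124-3p and miR-9-5p overlap between ages.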

How the data were processed

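The authors deposited lists of peak positions in mm10 whose score is 0 in every entry, and counts per mature miRNA not normalised. The submitters' processing notes name STAR 2.5.2a, Bowtie2 2.4.2, cutadapt 2.10, deepTools 3.1.3, UMI-tools and DESeq2 1.36.0. Their roles, the peak caller and any pooling were not given in the sources used here. File names point to miRNA counts without collapsing by identifier, so PCR copies may count repeatedly.

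Peaks were placed on GENCODE M21 by strand with Python 3.11.15. Sequences came from its transcripts. The miRNA totals were 13059 and 6828 (P7) and 169054 and 94132 (P15), and the depth of the target libraries is not known. After filterByExpr, miRNAs went through the quasi-likelihood test of edgeR 4.0.16 (R 4.3.3, TMM scaling, Benjamini-Hochberg adjustment, threshold 0.05), with DESeq2 1.42.0 as an alternative; the fit was tested on simulated data. Nothing says that replicates are separate animals, so p-values measure only the spread between these libraries.

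Named genes had at least 2 peaks, a peak shared by both ages or a place in a list; 5 at most were taken from large classes, with their hosted miRNAs and at most 12 sequences. Other names, such as miR-7a-5p, miR-671-5p, Gm37320, Gm17494 and single snoRNAs, and the adapter, AATAAA and B box searches, were chosen after their values were seen. The members and lists were chosen with earlier results of these data known. Alternatives covered the overlap rule, transcript classes, seed length, flanks, scaling, filters, each library left out and the replicate number as a block.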

Additional observations from a re-analysis of the deposited data

How the results depend on the processing

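Of 116 alternative values 80 counted as the same as the main one, among them 26 of 34 for the overlap. For overlaps and log2 changes, same meant an equal direction and side of the threshold. For shares and seed matches it meant a value inside the main exact interval, and for the number of miRNAs called a value within a fixed ratio. When the replicate 2 list stood for P15, the non-coding share was 9.61%, the difference of P7 peaks from 3' UTR peaks was 34.2 percentage points, and the differences of the list's own peaks on P7 were -6.43 (3' UTR) and -14.1 (coding exons). The P7 difference from 3' UTR peaks was 17.8 with an overlap of at least 50% of both peaks and 14.5 with nonsense-mediated decay transcripts as coding; under these and with the replicate 2 list it passed. Without small RNA genes, chosen after seeing the data, it was -2.84, and -6.17 also without Gm26917 and Gm42418; the P15 difference from coding exons was 7.25 without small RNA genes and 17.2 also without these loci. Seed matches were in 43.4% and 53.7% of peaks for 6 nt and in 27.3% at P15 with 20 nt on each side.

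The number of miRNAs called was 5, but 16 with DESeq2, 16 without a filter and 5 to 23 with a library left out; leaving out P7 replicate 1 gave 23, P7 replicate 2 also 23 and P15 replicate 1 10. With the replicate block it was 10, and miR-124-3p (adjusted p = 0.0012) and miR-9-5p (0.0463) passed in edgeR. Over miRNAs, the deviations of the 2 replicate 1 libraries from their age means correlated at -0.11. With 2 libraries per age this is a single value, which cannot show whether same-numbered libraries are paired. With crossed numbers, chosen after seeing the data, 19 miRNAs were called. Log2 changes reversed with library totals for miR-124-3p (-0.054), for miR-9-5p (-0.021) and for miR-9-3p (-0.24), and without a filter for miR-770-5p (0.064). With a library left out miR-9-3p ranged from -0.039 (P7 replicate 1) to 1.20 and miR-770-5p from -0.41 to 0.16 (P7 replicate 2). The cause of these moves was not tested. The part of depth in the miRNA calls was not tested, and peaks without heights or replicates cannot show a change with age.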
